A study of Rattus norvegicus with 4 samples.

Results

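The imprinted Dlk1-Dio3 cluster of rat chromosome 6 was examined through the 50 miRNA probes whose number belongs to a miRNA gene of that cluster, star probes left out. They are 50 of the 679 rat miRNA probes of the array, and 43 of the 44 numbers searched matched a probe. The label was borne out by position. All 50 probes matched RefSeq miRNA genes, 45 in number, and every one of these lies on the plus strand of chromosome 6 between the start of Meg3 and miR-410 (GRCr8).

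RNA came from the prostate of male TRAP rats that were 6 weeks old when treatment began. Every rat, controls included, carried the TRAP transgene, in which a probasin promoter, active in prostate epithelium, drives the SV40 T antigen. All were fed a control diet and were injected intravenously 2 times a week for 8 weeks with OBP-801, a histone deacetylase inhibitor, or with saline. The dose is 1 mg in one label and is given per kilogram of body weight in another. The groups were ventral prostate with saline, ventral prostate with OBP-801, lateral prostate with saline and lateral prostate with OBP-801, with 1 array each. The number of rats behind each array is not stated in the labels, and a difference between single arrays has no replicate check and is given with no p-value. As the RNA is from whole lobes, fewer cells that make a miRNA and less of it per cell cannot be told apart. Rats without the transgene were not analysed here.

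The cluster is expressed by parental origin. In mammals the paternal chromosome expresses the protein genes Dlk1, Rtl1 and Dio3, and the maternal chromosome expresses Meg3 and a chain of further non-coding RNAs that hold the miRNAs. A first group of miRNAs lies in and after Meg3. A second lies opposite Rtl1 and, in the mouse, cuts its transcript. The last and largest, from miR-379 to miR-410, is known for its expression in neurons, where rat miR-134 limits dendritic spines through Limk1. The miRNA miR-127 is known from human bladder cancer cells, in which combined inhibition of DNA methylation and of histone deacetylases switches it on and lowers BCL6.

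The mature miRNAs whose probes were detected on all 4 arrays, and miR-412, which was brightest on the lateral OBP-801 array, are printed here because every comparison rests on them. Sequences are RefSeq's, on GRCr8, 5′ to 3′, with the seed (bases 2 to 8) in capitals, in locus order. The array names of miR-540, miR-370, miR-494, miR-667, miR-487b, miR-539 and miR-412 give no arm, and the arm shown is the one known as the current name of the same miRNA. For miR-770 the arm is not settled and both are shown.
miR-770-5p: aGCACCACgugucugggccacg
miR-770-3p: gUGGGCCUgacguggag
miR-540-3p: aGGUCAGAggucgauccugggc
miR-665: aCCAGGAGgcugaggucccuua
miR-370-3p: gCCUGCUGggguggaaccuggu
miR-494-3p: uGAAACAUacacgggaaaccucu
miR-667-3p: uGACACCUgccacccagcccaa
miR-487b-3p: aAUCGUACagggucauccacuu
miR-539-5p: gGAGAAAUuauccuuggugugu
miR-668: uGUCACUCggcucggcccacuacc
miR-412-3p: cUUCACCUgguccacuagccgu

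Most of the cluster was not measurable in these lobes. Detection on an array meant that the spot signal, the median intensity of a probe's single spot, exceeded the mean of the blank spots there by more than 2 SD. This limit was 124 with saline and 116 with OBP-801 in ventral prostate, and 125 and 129 in lateral prostate. In the same order 12, 11, 9 and 13 of the 50 members were detected, which is 24%, 22%, 18% and 26%. Of all 679 probes, 44.0%, 42.7%, 42.7% and 48.5% were detected. On all 4 arrays 9 members (18%) were detected, against 242 of all probes (35.6%), 8 were detected on 1 or 2 arrays, and 33 (66%) on none, against 300 of all probes (44.2%). Counts above the limit were highest on the array of lateral prostate with OBP-801, for members and for all probes.

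By place in the locus, the probe of miR-770 (chr6:134298094-134298115 for the 5p arm, chr6:134298129-134298145 for the 3p arm), inside the span of Meg3, was detected on all 4 arrays. Of the 5 members between Meg3 and Rtl1, miR-540 (chr6:134321475-134321496) and miR-665 (chr6:134321733-134321754) were detected on all arrays, miR-337 on 1, and miR-673 and miR-493 on none. Of the 5 members within the span of Rtl1, only miR-127 was detected, on 1 array, and miR-431, miR-433, miR-434 and miR-136 were detected on none. Of the 2 between Rtl1 and the miR-379 run, miR-370 (chr6:134354538-134354559) was detected on all arrays and miR-341 on none. The run from miR-379 to miR-410 holds 37 probes of 32 genes, of which 5 were detected on all arrays, 6 on 1 or 2, and 26 on none. The 5 were miR-494 (chr6:134550163-134550185), miR-667 (chr6:134555392-134555413), miR-487b (chr6:134562939-134562960), miR-539 (chr6:134563606-134563627) and miR-668 (chr6:134570949-134570972).

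The 26 members of that run detected on no array were miR-379, miR-411, miR-299, miR-323, miR-758, miR-1193-3p, miR-1193-5p, miR-543, miR-376c, miR-376b-3p, miR-376b-5p, miR-376a, miR-300-3p, miR-300-5p, miR-381, miR-134, miR-485, miR-154, miR-496, miR-377, miR-541, miR-409-3p, miR-409-5p, miR-369-3p, miR-369-5p and miR-410. Over all 33 undetected members the spot signal ran from 88.3 to 123 in ventral saline (median 105), from 74.4 to 115 in ventral OBP-801 (median 100.2), from 93.7 to 123 in lateral saline (median 105) and from 87.8 to 129 in lateral OBP-801 (median 111). The blank spots averaged 102, 100.1, 104 and 109 on these arrays, so the undetected members as a group sat at the level of spots without a probe. Not detected here means not above the blank level, not absent.

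**Figure D1:**
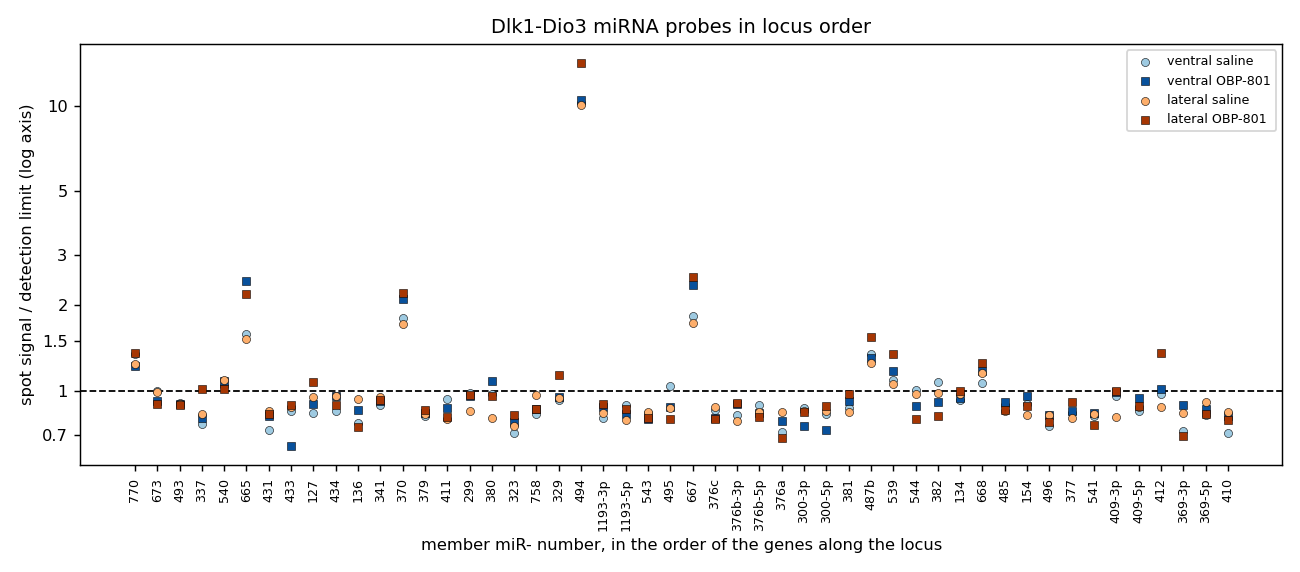
Spot signal of each of the 50 members divided by the detection limit of its array (log axis), in the order of the genes along the locus from miR-770 to miR-410, with 1 point for each of the 4 arrays and a dashed line at the limit. Only miR-494 stands 10 times or more above the limit, and most members lie at or below the line on every array.

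One member was bright. The spot signal of miR-494 was 1270 with saline and 1224 with OBP-801 in ventral prostate, and 1251 and 1820 in lateral prostate. These values were 10.04 to 14.1 times the limit, and placed miR-494 at ranks 36 to 46 among the 679 probes. The other 8 members detected everywhere were 1.01 to 2.51 times the limit. Signals of different probes are not comparable as amounts, since each probe binds with its own strength.

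The 3 members next in signal were miR-665, miR-667 and miR-370, and each had both OBP-801 arrays above both saline arrays. The spot signal of miR-665 was 196 with saline and 282 with OBP-801 in ventral prostate, and 189 and 282 in lateral prostate. That of miR-667 was 227, 274, 216 and 324 in the same order of arrays. That of miR-370 was 223, 244, 213 and 283. The lateral OBP-801 array, which was the brightest for 7 of the 9 members before normalization, also had the highest blank level, 1.09 times that of the lowest array.

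The remaining 5 lay closer to the limit. In the same order of arrays, the spot signal of miR-487b was 167, 152, 156 and 199. That of miR-770 was 166, 142, 155 and 175. That of miR-539 was 135, 137, 131 and 174. For these 3 the highest value was again on the lateral OBP-801 array. That of miR-668 was 132, 136, 144 and 161. That of miR-540 was 128, 126, 136 and 131 and its highest value was on the lateral saline array. After normalization between arrays the brightest array was ventral OBP-801 for 4 of the 9, ventral saline for 2, lateral OBP-801 for 2 and lateral saline for 1.

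**Figure D2:**
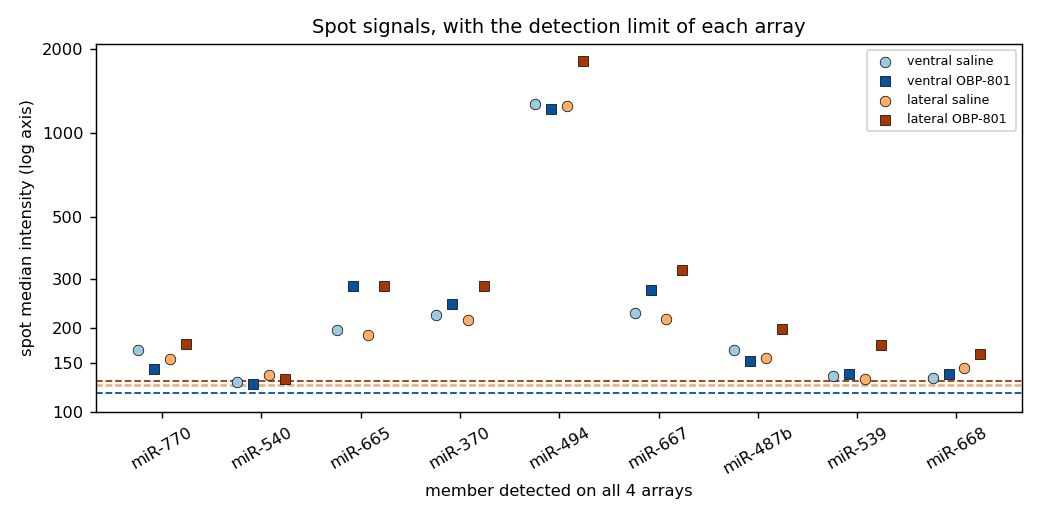
Spot median intensity (log axis) of the 9 members detected on all 4 arrays, with 1 point for each array and a dashed line at each array's detection limit. The points of miR-494 lie between 1224 and 1820, and both OBP-801 points of miR-665, miR-667, miR-370 and miR-539 lie above both saline points.

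The first comparison asked what OBP-801 did to the cluster in the ventral prostate. Differences are log2 values of background-corrected signals with an offset of 50, normalized between arrays, and the offset makes those of dim miRNAs smaller. Of the 9 members detected on both arrays, 6 were above 0 and 3 below, with a median of 0.16, against a median of -0.02 over all 260 miRNAs detected on both arrays, of which 47.3% were above 0. At 2-fold 0 members were higher and 0 were lower, against 0.769% and 0% of all 260. At 1.5-fold 1 member, miR-665, was higher and 0 were lower, against 2.69% and 3.85% of all. The difference of miR-665 was 0.62 or 1.53-fold, and the spread of the differences of all 260, an SD computed from their median absolute deviation, was 0.26. The next were miR-667 at 0.29, miR-370 at 0.18, miR-668 at 0.17, miR-539 at 0.16 and miR-540 at 0.08. Below 0 were miR-487b at -0.13, miR-494 at -0.18 and miR-770 at -0.20. Of these 8, miR-667 was just beyond that spread and the others were within it.

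In the lateral prostate the same number of members lay above and below 0, but not the same members. Of the 9, 6 were above 0 and 3 below, with a median of 0.19, against 0.00 over all 271 miRNAs detected on both arrays, of which 47.2% were above 0. At 2-fold 0 members were higher and 0 lower, against 0.369% of all in each direction, and at 1.5-fold 0 members passed either way, against 2.21% higher and 2.58% lower. The highest members were miR-494 at 0.46, miR-665 at 0.44 and miR-667 at 0.40, all beyond the spread of 0.23. They were followed by miR-539 at 0.28, also beyond this spread, and by miR-370 at 0.19 and miR-487b at 0.18, within it. The members miR-668 at -0.02 and miR-770 at -0.03 were next to 0, and miR-540 was at -0.19.

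With no filter, all 50 members had medians of 0.09 in ventral prostate, with 35 above 0, and 0.02 in lateral prostate, with 26 above 0, against -0.00 and 0.00 over all probes. Most of these values come from spots at blank level. In both lobes the median of the detected members was smaller than the difference of miR-665.

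**Figure D3:**
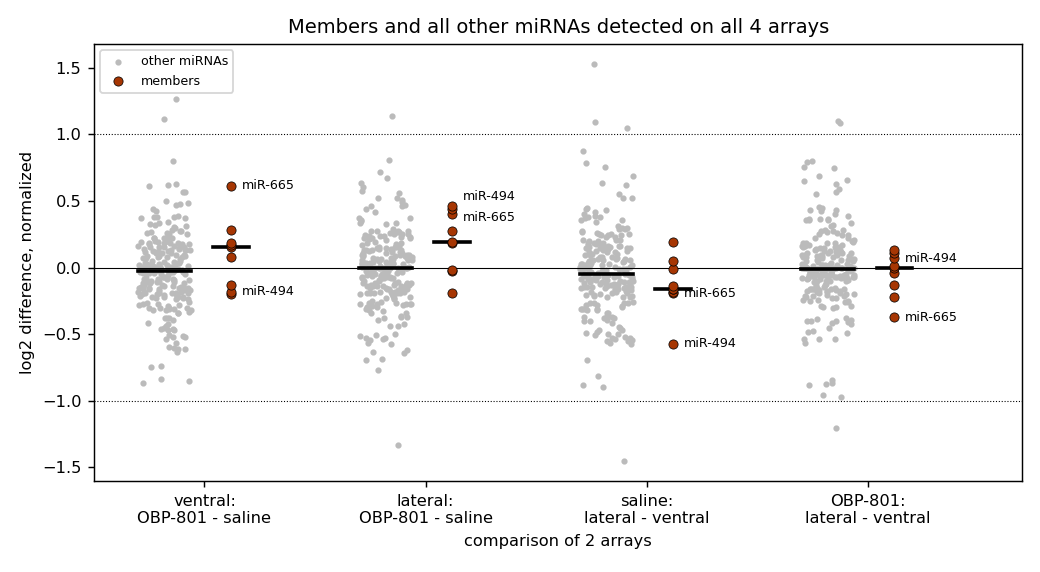
Normalized log2 differences of the 9 members (red) and of the other miRNAs detected on all 4 arrays (grey) in the 4 comparisons of 2 arrays. Black bars mark the median of the members and, over the grey points, that of all miRNAs detected on all 4 arrays, members included. Dotted lines are at 2-fold. No member reaches 2-fold, and miR-665 lies at 0.62 in ventral and 0.44 in lateral prostate.

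Set side by side, 4 members were above 0 in both lobes, namely miR-665, miR-667, miR-539 and miR-370, and miR-770 was below 0 in both. In these 5 the OBP-801 and the saline arrays did not overlap. Under 11 alternatives miR-665 and miR-667 stayed above 0 in both lobes, though those that changed only the detection limit could not alter these values. In the deposited table miR-539 and miR-370 were below 0 in ventral prostate (-0.20 and -0.10). The lateral value of miR-770 was above 0 with no normalization (0.17) and with spike scaling (0.11). It was also above 0 in the deposited table (0.20) and with print block medians removed (0.06). Of all 242 miRNAs detected on all arrays, 21.5% had both OBP-801 arrays above both saline arrays and 23.6% had both below, so that 4 and 1 of 9 members stand beside these shares. The other 4 members had opposite signs in the lobes, the widest apart being miR-494. None of these 4 contrasts held under every alternative. The lobes share no array, but the sample labels identify no rats. Both lobes may come from the same animals, so they cannot be taken as independent. On each slide the array at position 1 was saline and the one at position 2 was OBP-801, so that agent and position cannot be told apart.

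**Figure D4:**
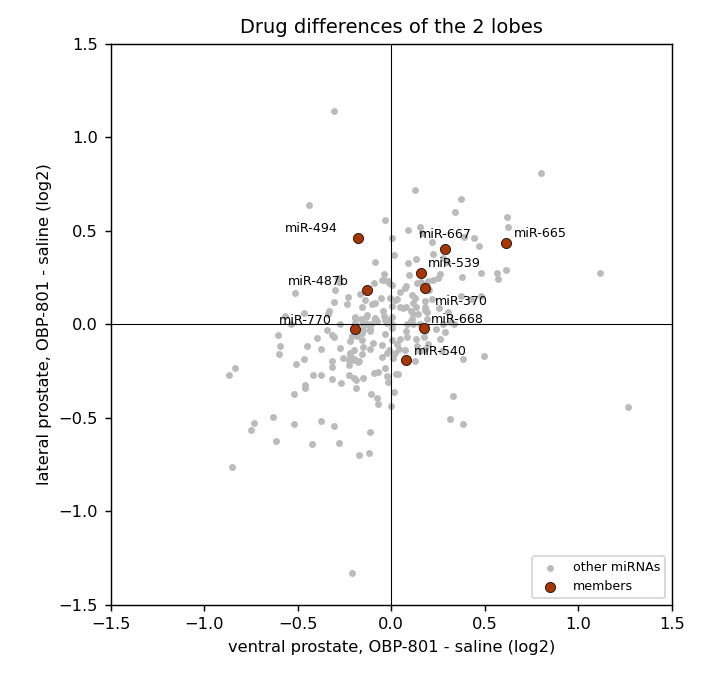
Each point is 1 miRNA detected on all 4 arrays, with its OBP-801 minus saline log2 difference in ventral prostate on the horizontal axis and in lateral prostate on the vertical axis, members in red. The members miR-665, miR-667, miR-539 and miR-370 lie in the upper right part, miR-770 lies just below 0 on the vertical axis, and miR-494 is at -0.18 and 0.46.

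The only test the design allows is an additive fit with lobe and agent as terms, in which the residual is the difference between the responses of the lobes. It was made with limma on the 242 miRNAs detected on all arrays and adjusted over all of them. The SE and p of this fit, under every setting, rest on how far the lobes agree and do not measure variation between rats. For the agent 0 members passed an adjusted p of 0.05, as did 0% of all 242. At an unadjusted p of 0.05, 2 members were higher, miR-665 and miR-667, and 0 were lower, against 8.26% of all in each direction. The effect of miR-665 was 0.53 (SE 0.099, limma adjusted p = 0.187), higher in 2 of 2 lobes. That of miR-667 was 0.34 (SE 0.093, limma adjusted p = 0.240), also higher in 2 of 2 lobes. The smallest adjusted p among all miRNAs was 0.153.

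Of the other members, miR-539 had an effect of 0.22 (SE 0.093, limma adjusted p = 0.310) and miR-370 of 0.19 (SE 0.087, limma adjusted p = 0.320). The effect was 0.14 for miR-494, 0.08 for miR-668, 0.03 for miR-487b, -0.06 for miR-540 and -0.11 for miR-770, with limma adjusted p from 0.571 to 0.908. Of the 9 effects 7 were above 0, against 115 of all 242 (47.5%), with a median of 0.14 against -0.02. The call of miR-665 changed with the background step and with the scaling. Its effect was 0.82 (limma adjusted p = 0.0116) when the blank level was subtracted without an offset, 0.63 (0.0219) with an offset of 16 and 0.61 (0.0240) with arrays scaled on the spike controls. Under these settings 15, 17 and 18 of all miRNAs passed. With no background correction it was 0.46 (limma adjusted p = 0.0678), and in the authors' deposited value table the effect of miR-665 was 0.72 with limma adjusted p = 0.717. Over all 12 alternatives, some of which changed only the detection limit and not its values, the effect of miR-665 ran from 0.46 to 0.82 and stayed above 0.

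The spot of miR-665 is in a print block, 1 of the 16 sub-grids of spots on the array, whose blank spots averaged 110 with saline and 110 with OBP-801 in ventral prostate, and 103 and 107 in lateral prostate. With the median of each block removed, its drug difference was 0.46 in ventral prostate and 0.45 in lateral prostate, so that no member passed 1.5-fold, and those of miR-667 were 0.34 and 0.48. For miR-487b the lateral difference became -0.07.

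The lobe comparison asked whether the cluster differs between ventral and lateral prostate under the same agent. It uses the same 4 arrays as the drug comparisons and is not independent of them. Each slide held saline at one position and OBP-801 at the other, so arrays with the same agent were on different slides. A difference between lobes and one between slides therefore cannot be told apart here. Under saline 7 of 9 members were lower in lateral than in ventral prostate and 2 were higher, with a median of -0.16 against -0.04 over all 255 miRNAs detected on both arrays. Of all 255, 44.7% were above 0. With arrays scaled on the spike controls 7 of the 9 were above 0, with a median of 0.04 against 0.14 over all, so that the direction of the members turned with the scaling. The difference furthest from 0 was that of miR-494, at -0.57 or 1.49-fold lower in lateral prostate. It rests on the quantile normalization, since it was -0.02 with no normalization, -0.04 with the array medians set equal and 0.10 with spike scaling. The highest member was miR-668 at 0.19. The others were miR-665 at -0.19, miR-487b at -0.18, miR-667 at -0.16, miR-770 at -0.16, miR-370 at -0.14, miR-539 at -0.01 and miR-540 at 0.05. At 2-fold 0 members passed in either direction, against 1.18% higher and 0.392% lower of all, and at 1.5-fold 0 passed, against 3.53% and 1.96%.

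Under OBP-801, miR-412 was detected on both arrays as well, and 5 of 10 members were above 0 and 4 below, with a median of 0.00 against -0.01 over all 271. At 2-fold 0 members passed, against 0.738% higher and 0.369% lower of all, and at 1.5-fold 0 passed, against 4.06% and 2.58%. The lowest was miR-665 at -0.37 and the highest miR-412 at 0.42, while miR-494 was at 0.07. Between these lay miR-540 at -0.22, miR-370 at -0.13, miR-667 at -0.04, miR-668 at 0.00, miR-770 at 0.01, miR-539 at 0.11 and miR-487b at 0.13. These values depend on the normalization. With none, miR-665 was at -0.04, from a spot signal of 282 on both arrays, while the median of all miRNAs was 0.28. With no normalization, with spike scaling and in the deposited table, 7 of the 9 members detected on all arrays were above 0. Under each of these, miR-370 and miR-667 were above 0. In the additive fit 0 members passed an adjusted p of 0.05 for the lobe, as did 0% of all, and 0 passed an unadjusted p of 0.05, against 7.02% higher and 9.5% lower of all. The nearest was miR-665 with -0.28 (SE 0.099, limma adjusted p = 0.313), lower in lateral prostate under 2 of 2 agents. For 0 of 9 members did the lateral and the ventral arrays not overlap, against 16.9% of all with lateral above and 18.6% with lateral below.

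The 8 members detected on some arrays were near the limit, and miR-412 (chr6:134579381-134579402) had the highest bound among them. Its spot signal was 120 with saline and 118 with OBP-801 in ventral prostate, and 109 and 175 in lateral prostate, above the limit on both OBP-801 arrays. For a member above the limit on 1 array of a pair only a bound can be given, from the normalized value on the bright array and, on the dim array, the larger of the probe's value and the lowest value of any detected probe. After OBP-801, miR-412 was higher by at least 1.35-fold in lateral prostate. In ventral prostate the bound was 1.02-fold (0.03 in log2), well within the spread of 0.26 over all miRNAs, and the spot signal itself was lower with OBP-801. No ventral difference is therefore read for miR-412. The blank spots of its print block averaged 96.0, 102, 93.0 and 112 on the 4 arrays, and thus were also highest on the lateral OBP-801 array. Their part in the result was not tested.

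Only on the lateral OBP-801 array were miR-127, miR-329 and miR-337 detected. The spot signal of miR-127 was 103 with saline and 105 with OBP-801 in ventral prostate, and 118 and 139 in lateral prostate. Its bound against lateral saline was at least 1.05-fold. That of miR-329, a miRNA of the neuronal run, was 115, 111, 118 and 147, with a bound of at least 1.13-fold. That of miR-337 was 95.0, 93.5, 104 and 130, and no bound above 1 could be given. The bounds of miR-127 and miR-329 (0.07 and 0.17 in log2) were within the lateral spread of 0.23. This array had the highest share of all probes detected, 48.5%.

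Only on the ventral saline array were miR-382, miR-495 and miR-544 detected, and the 3 share a print block. The spot signal of miR-382 was 133 with saline and 106 with OBP-801 in ventral prostate, and 122 and 106 in lateral prostate. That of miR-495 was 129, 102, 109 and 103. That of miR-544 was 124, 103, 121 and 102. Their bounds against ventral OBP-801 were at least 1.08-fold, 1.09-fold and 1.01-fold higher in saline. In log2 these bounds were 0.11, 0.13 and 0.01, all within the ventral spread of 0.26. The blank spots of this block averaged 113 on the ventral saline array and 102, 108 and 109 on the others, while the block averages of the ventral saline array ran from 91.3 to 117. Detected only on the ventral OBP-801 array was miR-380, with a spot signal of 121, 126, 100.4 and 124. Its bound against ventral saline was 1.13-fold (0.18 in log2), within the spread of 0.26 over all miRNAs, and no difference is read from it. Against lateral OBP-801 the bound was 1.24-fold after background correction and normalization, while the spot signals themselves were 126 and 124.

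With a limit taken from the blank spots of each probe's own print block, chosen after seeing these values, 11 members were detected on all arrays, 11 on some and 28 on none, against 252, 190 and 237 of all probes. The 2 additional members on all arrays were miR-412 and miR-299, and miR-382, miR-495, miR-544 and miR-337 were then detected on none. Under this limit miR-380 was detected on both ventral arrays, and miR-329 on ventral saline and lateral OBP-801. The 9 members described above stayed detected on all arrays.

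Star probes, which in the naming of this array stand for the minor arm of a precursor, were likewise mostly below the limit. Of 35 star probes with the same numbers, 4 were detected on all arrays, 9 on some and 22 on none. The 4 were miR-770*, miR-667*, miR-487b* and miR-485*. The spot signal of miR-770* was 135 with saline and 155 with OBP-801 in ventral prostate, and 148 and 168 in lateral prostate. It differed by 0.32 between agents in ventral prostate and by 0.01 in lateral prostate, whereas the probe without a star was at -0.20 and -0.03. That of miR-667* was 157, 162, 152 and 175, with differences of 0.12 and 0.00, against 0.29 and 0.40 for miR-667. That of miR-487b* was 138, 131, 133 and 167, with 0.00 and 0.21. That of miR-485*, whose partner was detected on no array, was 150, 148, 155 and 177, with 0.11 and 0.03. The arms of miR-667 were thus both above the limit everywhere but did not differ by the same amount.

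The members detected on all arrays had, at the median, more G and C than the rest. Among the 8 of the 9 with a settled arm, the median G and C content of the mature sequence was 61.4% (40.9% to 68.2%). It was 45.5% for 6 of the 8 members detected on some arrays, 47.6% for 30 of the 33 detected on none, and 47.6% for all 724 rat mature miRNAs of RefSeq. The sequences of miR-370, miR-667, miR-668 and miR-540 hold most G and C, as can be read above, while miR-494 at 43.5%, miR-487b at 45.5% and miR-539 at 40.9% do not share this. The motif GGG, searched in the mature sequence as given, was in 4 of the 8, in 0 of the 6, in 5 of the 30 and in 24.2% of all 724. No 2 of the 44 members with a settled arm share a seed. What base composition has to do with detection on this array was not tested.

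**Figure D5:**
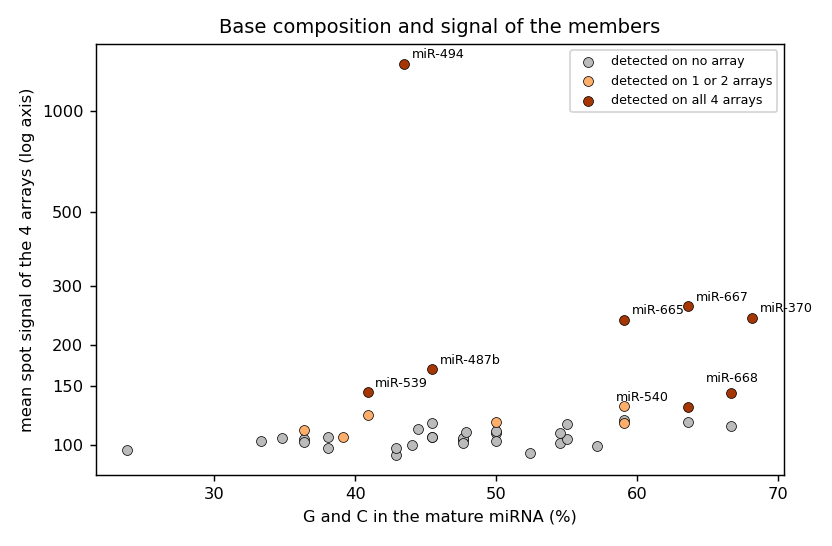
Mean spot signal of the 4 arrays (log axis) against the percentage of G and C in the mature sequence, for the 44 members with a settled arm, coloured by the number of arrays on which the probe was detected. Of the members detected on all 4 arrays, 5 lie above 55% and miR-494, miR-487b and miR-539 lie below 46%.

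Markers of the cell types that a prostate lobe can hold were read beside these values. All 7 epithelial markers, led by miR-200b and miR-200a, were detected on every array and so bear out the labelled tissue, with median drug differences of -0.15 in ventral and 0.00 in lateral prostate. All 5 stromal markers were detected on every array, and their medians were 0.34 and 0.27, above 0 like miR-665 and miR-667. Within this list miR-145 was at -0.31 in ventral and 1.14 in lateral prostate and miR-143 at 0.16 and 0.00. The 0.00 of miR-143 is also a tie in rank, as its lateral spot went from 5500 to 7378. The summed spot signal of the stromal list was 7079 with saline and 8289 with OBP-801 in ventral prostate, and 9808 and 17730 in lateral prostate, where the spot of miR-145 went from 2821 to 8084. The epithelial sum was 43333, 35883, 59000 and 76491 in the same order. One epithelial marker, miR-205, was at 0.62 and 0.58, close to miR-665. The endothelial miR-126 was at 0.47 and 0.42. The 5 leukocyte markers on the array had medians of -0.15 and -0.18, though miR-150 was at 0.38 in ventral and miR-223 at 0.04 in lateral prostate. Of 4 striated muscle markers 2 were detected on every array, with drug medians of 0.14 and 0.00. Their lateral minus ventral medians were 0.99 under saline and 0.84 under OBP-801. The erythroid miR-451 was at -0.04 and 0.56 for the drug, while miR-144 was detected on no array. Of 7 neuronal markers, 3 were detected on every array (miR-9, miR-128 and miR-7a), with medians of -0.32 and -0.23, while miR-137 and miR-219-5p were detected on none and miR-124 on 1. The part of stromal, endothelial or any other of these cells in the values of the cluster was not tested.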

How the data were processed

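Per the labels' protocols, total RNA was labelled with Hy5 for the arrays, which have 1 colour. The deposited scanner files give a median intensity at 635 nm for each spot and for the background around it, per the file headers. These intensity values were not corrected or normalized when deposited. The authors' deposited value table holds intensity values on a linear scale. On each array they were proportional to the spot median above a zero, with that zero at the mean blank spot after trimming 5% at each end and a median of 25. No label states the steps, and the table was used as an alternative.

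In limma 3.58.1 (R 4.3.3), normexp with an offset of 50 was run over all spots, controls were then dropped, and quantile normalization and log2 followed. Each miRNA has 1 spot, so the spread between spots is unknown, and the number of arrays, 4, limits the precision. Single arrays were compared as log2 differences among probes detected on both. The additive fit used lmFit and eBayes with 1 residual and 2.54 prior degrees of freedom, p-values adjusted by Benjamini-Hochberg, and was tested on simulated data. Sequences and positions were joined in Python 3.11.15 with pandas 2.3.3. Of the 44 arms with a sequence, 13 follow from the name and 31 from knowledge of current miRNA names.

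The cluster, its members and the marker lists were chosen with earlier results of these data known. Members detected on all arrays are named with every value, those detected on some with a bound, and the others by name, in locus order. Star probes detected on all arrays are also named. The alternatives changed the background step, the normalization, the detection limit and the print blocks, and used the deposited table.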

Additional observations from a re-analysis of the deposited data

Results flagged for a closer look

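For 4 members the OBP-801 array lay above the saline array in one lobe and below it in the other. The log2 difference of miR-494 was -0.18 in ventral and 0.46 in lateral prostate. That of miR-487b was -0.13 and 0.18, that of miR-540 was 0.081 and -0.19, and that of miR-668 was 0.17 and -0.020. With 1 array per group the difference between the lobes was not tested for any of them. Only for miR-494 was either value beyond the spread of all miRNAs in its lobe, 0.26 in ventral and 0.23 in lateral prostate, and this was the lateral value. The ventral value of miR-494 ran from -0.40 to 0.03 over 11 alternatives and the lateral one from 0.28 to 0.55. None of the 4 opposite signs held under every alternative. With the array medians set equal the ventral value of miR-494 was 0.03. With print block medians removed the lateral value of miR-487b was -0.07. With no normalization the ventral value of miR-540 was -0.02 and the lateral value of miR-668 was 0.19. In each of these cases both lobes had the same sign.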

How the results depend on the processing

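No paired analysis was possible because each group has 1 array and no replicate number, and the lobe already is a term of the fit. For the same reason no replicate could be left out. Of 774 values under alternative settings 670 were labelled the same, 101 moved and 3 became stronger. The same meant within the spread for a difference, and an unchanged sign and side of the threshold for a tested effect. For a count it meant equal or, with both above 0, within a factor of 1.5. Part of the 670 could not have changed. A new detection limit leaves the difference of a single miRNA as it was, and a new background step or scaling leaves the detection counts as they were. Of 452 log2 values among the 774, 38 had the other sign than in the report, none of them a value past a threshold. These included 7 medians of the members, of which 5 concerned the lobes under OBP-801 (median 0.00 in the report), 1 the lobes under saline with spike scaling (0.04) and 1 the drug in ventral prostate in the deposited table. The 3 that became stronger were the OBP-801 effects of miR-665 with the blank level subtracted (0.82), with an offset of 16 (0.63) and with spike scaling (0.61). In each of them 1 member, miR-665, passed an adjusted p of 0.05 in limma, against 0 in the fit described above. With the blank level subtracted 1 member was also at least 2-fold higher in lateral than in ventral prostate under OBP-801, against 7 of all miRNAs. With no normalization the members' median was 0.45 for the drug in lateral prostate, where the median of all miRNAs was itself at 0.19, and 0.26 for the lobes under OBP-801, where all were at 0.28. With spike scaling the latter was 0.27, against 0.29 of all. In the deposited table the members' median was -0.29 for the drug in ventral prostate (all -0.47), 0.45 in lateral prostate (all 0.15) and 0.46 for the lobes under OBP-801 (all 0.50). There, 1 member, miR-539, was at least 2-fold higher for the drug in lateral prostate (9 of all), and 1 for the lobes under OBP-801 (46 of all). The cause of these shifts was not tested. A limit of 3 SD left 6 members detected on all arrays, and one from the negative controls left 8. No share of all probes is given beside these counts, so they are not read as particular to the members. The limit of each print block, which was chosen after seeing the data, gave 11, against 252 of all probes. Signal over background limits the 8 members other than miR-494, which lay at 1.01 to 2.51 times the limit.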

Other observations

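Members with nearly the same seed were below the limit throughout. In 4 pairs of members the seeds differ at 1 base, namely miR-379 and miR-411, miR-376c and miR-376b-3p, miR-376b-3p and miR-376a, and miR-300-3p and miR-381, and all of these were detected on 0 arrays.

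Of 5 probes for miRNAs of other imprinted loci, miR-483 (from Igf2), miR-675 (from H19) and miR-298 were detected on all 4 arrays, and miR-296 and miR-335 on none. The spot signal of miR-483 was 149 with saline and 147 with OBP-801 in ventral prostate, and 142 and 170 in lateral prostate. That of miR-675 was 133, 125, 131 and 161, and that of miR-298 was 126, 124, 129 and 150. The median drug difference of the 3 was 0.05 in ventral and 0.14 in lateral prostate, against 0.16 and 0.19 for the members. The difference between the lists was not tested.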
